A study of Mus musculus with 4 samples.

Results

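Genes that mark neural progenitors, the dividing cells of the early neural plate and neural tube, were examined in mouse embryonic stem (ES) cells in which Fmr1 was knocked down. The set holds 30 listed genes and was chosen by name from the field's usual markers of these cells. All 30 have at least 1 array feature that carries their symbol alone, so 30 of 19083 measured genes and 125 of 33649 named features are described. The list was proposed with results of these data known, so no test is given for the list as a whole.

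The cells were ES cells that a GFP-encoding lentivirus had supplied with a short hairpin RNA. One hairpin, shFmr1, targets constitutive exon 1 of Fmr1, and the other, shCT, has a random sequence and served as control. Both groups thus carry the virus, GFP and a hairpin, and both were kept as sorted populations that do not derive from single clones. They were cultured ES cells, and no label names a neural differentiation step. Each of 4 arrays compared 1 shFmr1 RNA with 1 shCT RNA, with shFmr1 in Cy5 on replicates 1 and 3 and in Cy3 on replicates 2 and 4. The labels do not say whether replicates were separate cultures, so the spread between arrays may be partly technical.

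Values are the authors' log ratios, read here as log2 of shFmr1 over shCT, and a gene's value is the mean over its features. The base is not stated. The ratios were used as deposited, and that they run the same way on both dye orientations rests on the targeted gene. Fmr1 read -0.86, -1.65, -1.34 and -1.61 on replicates 1 to 4, a mean of -1.37 ± 0.36 (SD, n = 4), with a limma adjusted p of 0.156. Direction is therefore called likely, and all statements of higher and lower follow it. Channel brightness was not analysed here, so which of these genes were expressed above background was not determined, and the ES cell label could not be set against marker levels. In a bulk culture, fewer progenitor-like cells and less RNA per cell cannot be told apart.

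Neural progenitors arise when ectoderm escapes BMP and WNT signals and begins to express SOX and PAX factors. Regional transcription factors then divide the neural tube along its length and from back to belly. Progenitors also carry a typical cytoskeleton and adhesion profile, with nestin filaments and N-cadherin at the cell surface. Undifferentiated ES cells are not known for this programme, although several of the factors, such as Gbx2, are also known from ES cells themselves.

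No member passed the test for a difference between shFmr1 and shCT. With limma, 0 of the 30 genes had an adjusted p under 0.05, as was so for 0 of 19083 genes in all (0%). The targeted gene Fmr1, at a mean of -1.37, did not pass either, with a limma adjusted p of 0.156. The lack of a call thus does not show that a member was unchanged. An unadjusted p under 0.05 was found for 1 member, the midbrain factor En2, and for 3.77% of all genes. The share of members, 3.33%, was thus close to the background. Of the 30 means, 15 were below 0 and 15 above, where 50.5% of all genes were below 0, with a median of 0.0006 beside -0.0013 over all genes. The means ran from -0.65 for Pax7 to 0.38 for Zic1.

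A mean beyond 0.25 in either direction was seen for 6 members, or 20%, against 7.16% of all genes. These were Nes, Pax7 and Emx2 on the lower side and En2, Zic1 and Meis2 on the higher side. Ratios of 1 sign on every array were read for 7 members, 3 lower and 4 higher, against 5.88% of all genes for lower and 5.37% for higher. The lower ones were Nes, Pax7 and Msi1, and the higher ones were Pax6, Rax, Pou3f2 and En2. The SD over arrays exceeded the size of the mean for 23 of the 30, against 88.3% of all genes. For a typical member the 95% confidence interval reached 0.27 to either side of its mean. For 28 of the 30 it lay within 1 of 0, against 18700 of 19083 genes.

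**Figure D1:**
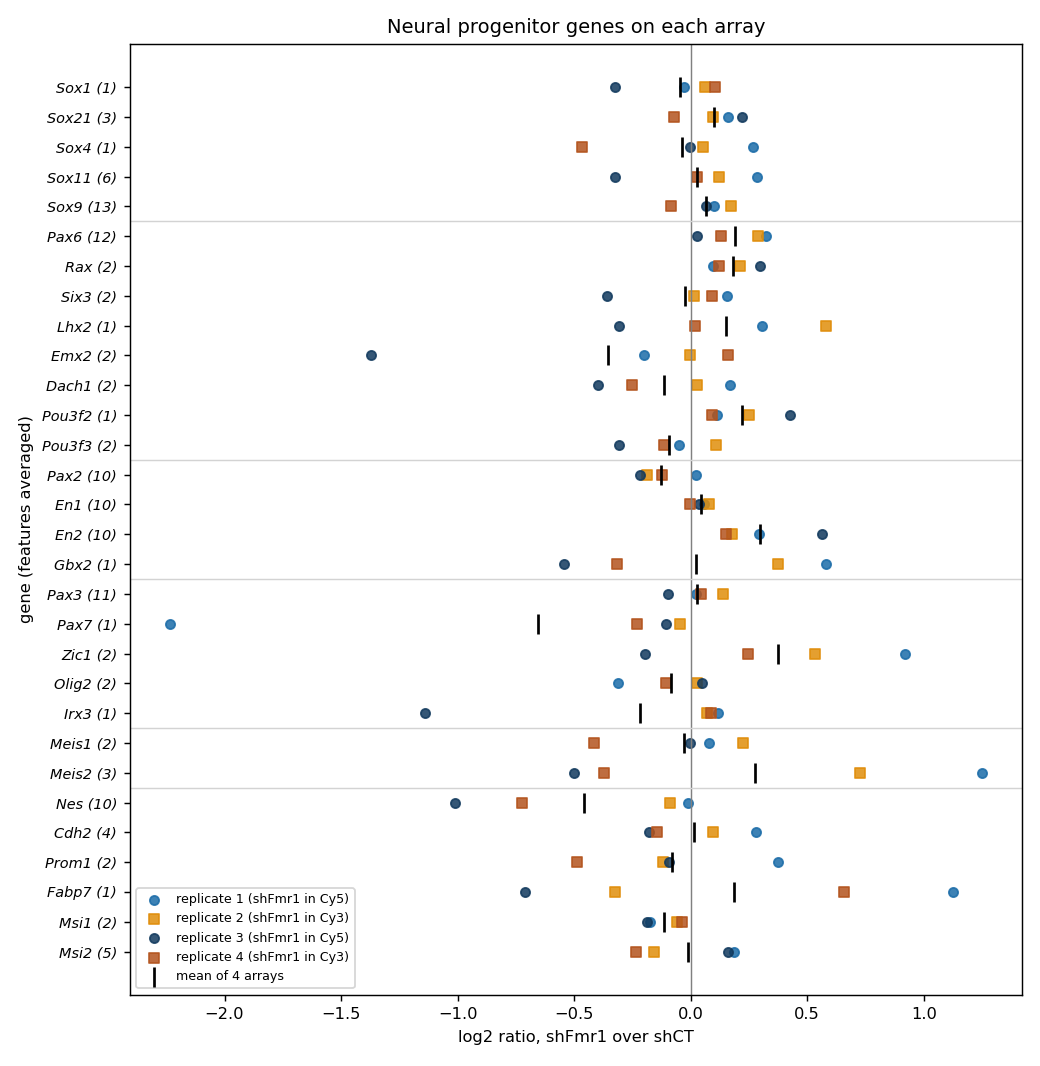
Log2 ratio of shFmr1 over shCT (x axis) for each of the 30 genes (y axis, number of features in brackets, grey lines between roles) on 4 arrays, circles for shFmr1 in Cy5, squares for Cy3, and a black bar for the mean of 4 arrays. Most genes lie within 0.5 of 0 on all arrays, while Nes is low on replicates 3 and 4 and Meis2 changes sign between arrays.

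**Figure D2:**
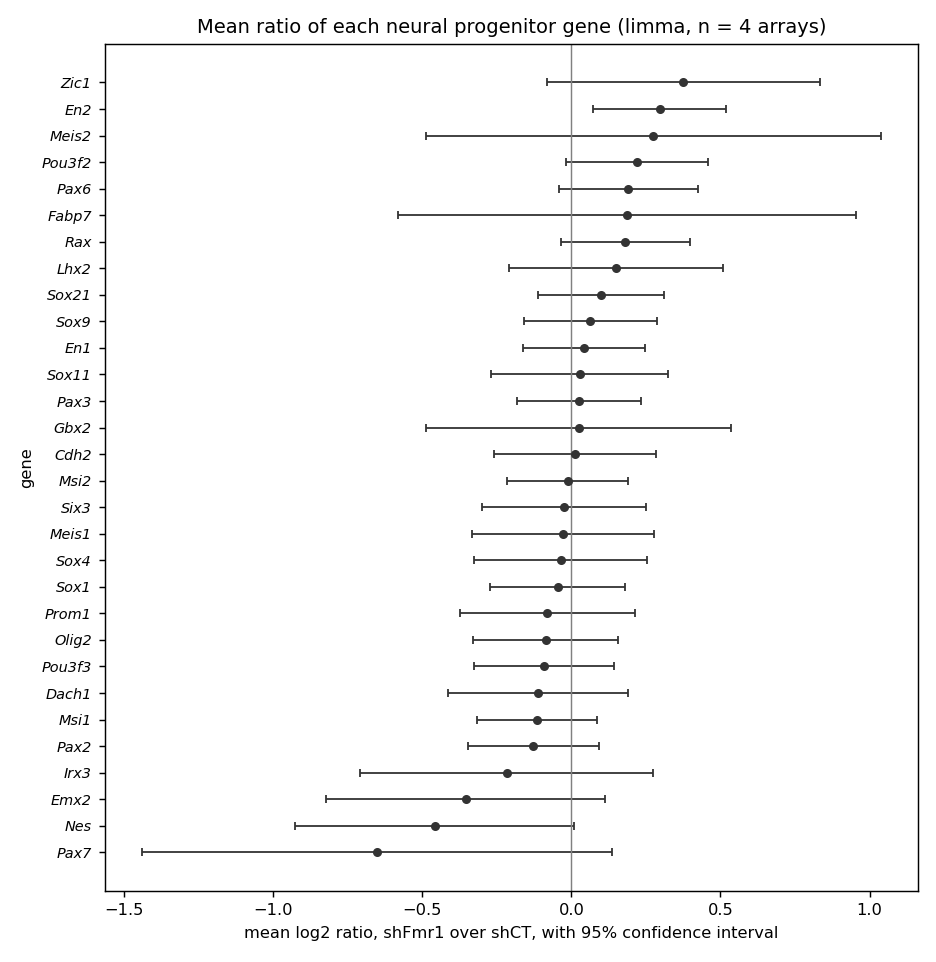
Mean log2 ratio of shFmr1 over shCT with its 95% confidence interval from limma (x axis, n = 4 arrays) for the 30 genes, ordered by the mean (y axis). The interval of En2 lies above 0, from 0.07 to 0.52, before any adjustment for the number of genes, and the other 29 intervals cross 0.

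Nes, which encodes the intermediate filament protein nestin of neural progenitors, had the lowest mean among members with more than 1 feature. It read -0.01, -0.09, -1.01 and -0.72 on replicates 1 to 4. Replicates 1 and 2 were near 0, and replicates 3 and 4 were clearly below it. Its 10 features, all annotated to the same transcript record, repeated this picture. Probe sequences were not used, so whether the features are different probes or repeats of 1 probe was not determined. On replicate 3 they averaged -1.01 ± 0.17 (SD over features), from -1.33 to -0.82, and on replicate 4 -0.72 ± 0.22, from -1.14 to -0.55. On replicates 1 and 2, 5 and 7 of the 10 features were below 0. The difference between arrays was therefore larger than the scatter of features within an array. The replicates with low values include both dye orientations, since shFmr1 carried Cy5 on replicate 3 and Cy3 on replicate 4.

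The mean of Nes over arrays was -0.46 ± 0.49 (SD, n = 4), with a 95% confidence interval from -0.93 to 0.01 and a limma adjusted p of 0.973. It corresponds to 72.8% of the control level. Over the alternatives run, the adjusted p ranged from 0.522 without replicate 1 to 1.00. Of 223 genes with at least 8 features, 1 had a mean further from 0, and 9 had a larger SD over the arrays. With the dye term, the mean of Nes was -0.21 without replicate 3 and -0.71 without replicate 1.

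Meis2 and Zic1 also varied widely between arrays. Meis2, a homeobox cofactor of HOX and PAX proteins in the developing brain, read 1.25, 0.73, -0.50 and -0.37. All 3 of its features were above 0 on replicates 1 and 2 and below 0 on replicates 3 and 4, but on replicate 1 they ranged from 0.32 to 2.05, with an SD of 0.87 as large as the spread over arrays. Its mean of 0.28 ± 0.85 (SD, n = 4) thus describes no array. Without replicate 1 it turned to -0.16 with the dye term and to -0.05 without that term. Of 1958 genes with 3 features, 2 had a larger SD. Zic1, a zinc finger factor of the dorsal neural tube, read 0.92, 0.53, -0.20 and 0.24, a mean of 0.38 ± 0.47 (SD, n = 4). Without replicate 1 the mean of Zic1 was 0.10 with the dye term and 0.19 without that term. Its 2 features were both above 0 on replicates 1, 2 and 4 and disagreed on replicate 3.

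Some single-feature genes also varied widely between arrays. Gbx2, a hindbrain homeobox factor also active in ES cells, read 0.58, 0.38, -0.55 and -0.32. Fabp7, the brain lipid-binding protein of radial glia, read 1.12, -0.33, -0.71 and 0.66, so its high arrays were replicates 1 and 4. Both means, 0.02 ± 0.54 and 0.19 ± 0.85 (SD, n = 4), were smaller than their spread.

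Fibroblast genes, read because ES cells are often grown on a feeder layer, also differed between the arrays. The 8 markers had medians of 0.35, 0.31, -0.01 and -0.27 on replicates 1 to 4, with 6 of 8 means above 0 and a range from -0.18 to 0.42. The collagen gene Col1a1 read 2.19, 0.54, -0.05 and -0.99. Like Meis2 and Gbx2 it was highest on replicate 1 and below 0 on replicates 3 and 4. Its lowest array was replicate 4, whereas Nes, Meis2, Zic1 and Gbx2 were lowest on replicate 3. Col1a1 had the largest SD of the 8 markers, 1.34, and not all of them followed it. Thy1 ran the other way, at -0.45, -0.30, -0.27 and 0.29, and Postn was highest on replicate 4, at 0.31. Of the 8, 1, 2, 4 and 5 were below 0 on replicates 1 to 4. By the labels, flow cytometry served to sort the cells that carried the virus. Feeder use is not stated there, and whether the sorted populations held any feeder cells is not known. The part of such cells in these ratios was not tested.

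The promoters of Nes, Meis2 and Zic1 are shown because these 3 genes, each with more than 1 feature, differed widely between arrays, a choice made after their values were seen. Each run holds the 250 bases before the annotated transcription start, 5′ to 3′ on the gene's strand, from RefSeq on GRCm38.p6. Capitals mark GC boxes (GGGCGG) and CCAAT boxes (CCAAT) on either strand. Nes lies at chr3:87970843-87971092 on the plus strand, Meis2 at chr2:116064620-116064869 on the minus strand and Zic1 at chr9:91365769-91366018 on the minus strand.
Nes: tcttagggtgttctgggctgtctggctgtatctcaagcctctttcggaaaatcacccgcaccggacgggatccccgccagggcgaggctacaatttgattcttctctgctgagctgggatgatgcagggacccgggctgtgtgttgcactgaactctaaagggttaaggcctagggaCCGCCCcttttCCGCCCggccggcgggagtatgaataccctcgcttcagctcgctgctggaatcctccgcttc
Meis2: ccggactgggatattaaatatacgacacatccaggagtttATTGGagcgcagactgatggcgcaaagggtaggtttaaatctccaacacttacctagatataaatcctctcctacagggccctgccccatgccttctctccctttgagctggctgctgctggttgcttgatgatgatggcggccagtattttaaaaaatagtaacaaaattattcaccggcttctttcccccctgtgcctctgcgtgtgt
Zic1: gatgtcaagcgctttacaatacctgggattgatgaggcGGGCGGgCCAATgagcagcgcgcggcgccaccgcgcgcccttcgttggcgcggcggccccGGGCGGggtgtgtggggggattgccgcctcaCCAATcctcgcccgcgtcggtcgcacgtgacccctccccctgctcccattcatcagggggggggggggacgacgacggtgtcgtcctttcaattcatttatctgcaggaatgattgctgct

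The promoters of the 3 genes differ in composition. GC content was 58.8% for Nes, 47.6% for Meis2 and 66.0% for Zic1, with 15, 7 and 27 CpG dinucleotides. Nes holds 2 GC boxes and 0 CCAAT boxes, Meis2 0 and 1, and Zic1 2 and 2. A GC box was found in 32.9% of 27025 promoters of that length, 1 per gene, and a CCAAT box in 34.5%. Of the 24 members with a promoter in the table, 13 held a GC box and 16 a CCAAT box. The promoters of these members had a median GC content of 60.2%, against 52.0% over all promoters. Their median number of CpG dinucleotides was 15, against 6. The motif counts were not compared at equal composition. The SOX core ATTGTT was found in 1 of the 24 and in 9.65% of all promoters, and the POU octamer ATGCAAAT in 0 and in 1.61%. TATAAA was in 2 of the 24 and 13.0% of all, and the E-box CANNTG in 9 and 66.0%. All motifs were searched on both strands, and those in capitals do not overlap each other in these runs. Meis2 also holds 1 TATAAA and Zic1 1 E-box, which are not in capitals. A match says only that the letters are present.

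**Figure D3:**
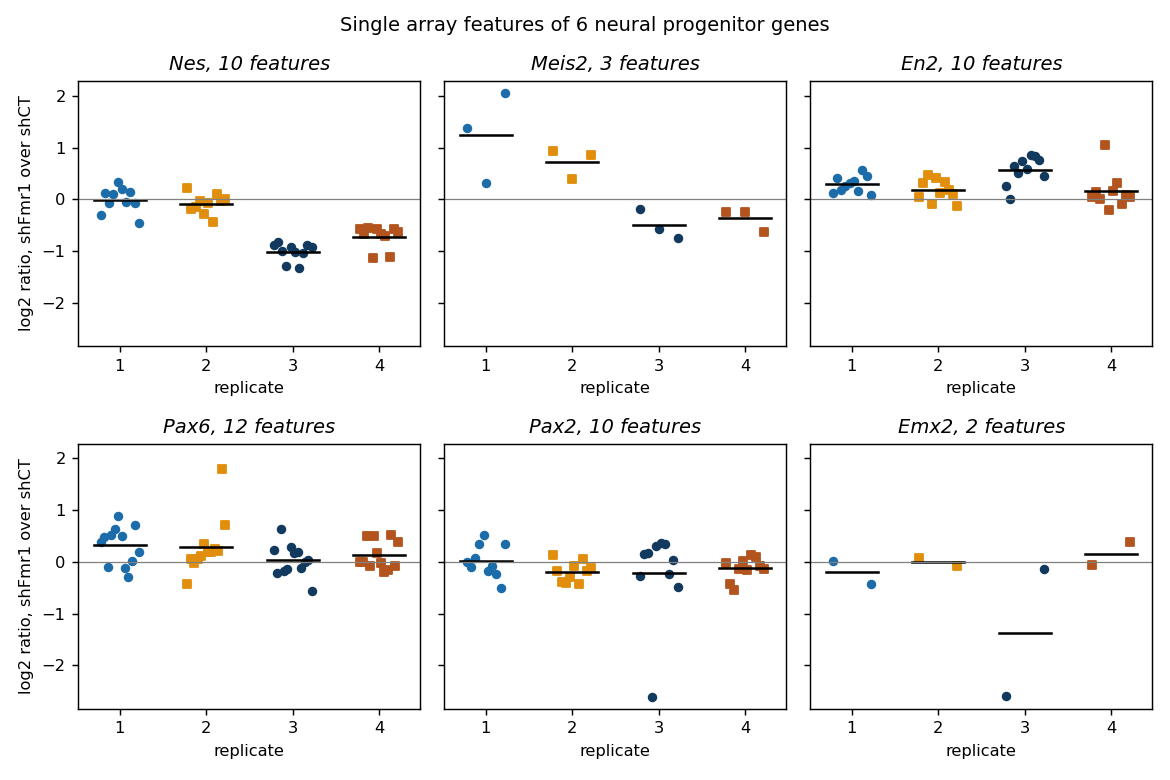
Log2 ratios of single features (points, y axis) on replicates 1 to 4 (x axis) for 6 members, with a black line at the mean of the features on each array. All 10 Nes features are below -0.5 on replicates 3 and 4, En2 features lie mostly above 0, and 1 feature each of Pax2 and Emx2 reads about -2.6 on replicate 3.

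Among the midbrain and hindbrain factors, En2 stood at the higher end. The engrailed homeobox gene En2 is known for patterning the midbrain and cerebellum and read 0.29, 0.18, 0.56 and 0.15 on replicates 1 to 4. All arrays were above 0, with replicate 3 the highest. The mean was 0.30 ± 0.19 (SD, n = 4), a 1.23-fold difference, with a 95% confidence interval from 0.07 to 0.52 and a limma adjusted p of 0.973. Over the alternatives run, that p ranged from 0.740 without replicate 1 to 1.00. With 1 feature per gene its mean was 0.12. All 10 of its features had means above 0, and 35 of its 40 single values were positive. Of the 223 genes with at least 8 features, 9 had a mean further from 0.

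Its paralog En1, which is needed earlier in the same region, read 0.06, 0.08, 0.04 and 0.00. At a mean of 0.04 ± 0.03 (SD, n = 4) over 10 features it was the steadiest member, and 217 of the 223 genes with at least 8 features had a larger SD. Pax2, a paired-box factor of the midbrain-hindbrain boundary, averaged -0.13 ± 0.11 (SD, n = 4) over 10 features. One of these read -2.61 on replicate 3 while the gene's other features there lay between -0.48 and 0.37. With the feature left out, the mean was -0.06. The difference between En2 and En1 was not tested.

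The forebrain and eye factors showed small ratios. Pax6, the paired-box regulator of eye and cortical progenitors, read 0.32, 0.29, 0.03 and 0.13, positive on every array, a mean of 0.19 ± 0.14 (SD, n = 4). Its 12 features were less uniform, with 32 of 48 single values above 0 and 1 feature at 1.81 on replicate 2. Rax, a homeobox factor of the eye field, read 0.10, 0.21, 0.30 and 0.12. Pou3f2, a POU factor of upper-layer cortical neurons and their progenitors, read 0.11, 0.25, 0.43 and 0.09. Both genes were above 0 on all arrays, with means of 0.18 ± 0.09 and 0.22 ± 0.15 (SD, n = 4). The 95% confidence intervals of all 3 crossed 0, and the limma adjusted p was 0.973 for each.

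Emx2, a factor of the dorsal cortex, had the lowest mean of this group. It read -0.20, 0.00, -1.37 and 0.16, so that replicate 3 alone was far from 0. Of its 2 features there, 1 read -2.60 and the other -0.14. The mean of -0.35 ± 0.69 (SD, n = 4) became -0.07 without the first feature and -0.06 without replicate 3 with the dye term. Lhx2, Six3, Dach1 and Pou3f3, which act in the eye field, cortex or hippocampus, averaged between -0.11 and 0.15. Their lowest value was in each case on replicate 3, between -0.40 and -0.31.

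The dorsoventral and spinal cord factors included the lowest mean of all members. Pax7, a paired-box factor of the dorsal neural tube and of muscle progenitors, read -2.23, -0.05, -0.10 and -0.23. Replicate 1 was far below the others, and Pax7 has 1 feature, so this value has no second measurement. The mean was -0.65 ± 1.06 (SD, n = 4), with a limma adjusted p of 0.973, and it was -0.12 without replicate 1 with the dye term. Its close relative Pax3, with 11 features, averaged 0.03 ± 0.10 and stayed between -0.10 and 0.14.

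Irx3, an Iroquois factor of the intermediate neural tube, read 0.12, 0.07, -1.14 and 0.09 from 1 feature. Only replicate 3 departed from 0 for this gene. Without it the mean turned from -0.22 to 0.10 when the dye term was kept. Olig2, the factor of motor neuron and oligodendrocyte progenitors, averaged -0.09 ± 0.16 (SD, n = 4), with values from -0.31 to 0.05.

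The means of the SOX factors ran from -0.05 for Sox1 to 0.10 for Sox21. Sox1, the earliest SOX gene specific to neuroectoderm, read -0.03, 0.06, -0.32 and 0.11, a mean of -0.05 ± 0.19 (SD, n = 4). Sox21, which balances progenitor maintenance against differentiation, averaged 0.10 ± 0.13, and 0.19 with 1 feature per gene. Sox4 and Sox11, SoxC factors of differentiating neurons, averaged -0.04 ± 0.31 and 0.03 ± 0.26. Sox9, a factor of neural stem cells and glia with 13 features, averaged 0.06 ± 0.11 with a 95% confidence interval from -0.16 to 0.29. Its features were split, with 4 means below 0 and 9 above. Meis1, the relative of Meis2, averaged -0.03 ± 0.27 and ran from -0.41 to 0.22.

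The remaining members concern adhesion, the cell surface and RNA binding. Msi1 and Msi2 encode Musashi proteins that regulate mRNA translation in neural stem cells. Msi1 read -0.18, -0.06, -0.19 and -0.04, below 0 on all arrays, with a mean of -0.12 ± 0.08 (SD, n = 4). Msi2 averaged -0.01 ± 0.22, and its sign followed the dye, at 0.18 and 0.16 with shFmr1 in Cy5 and -0.16 and -0.23 in Cy3. Cdh2, which encodes N-cadherin, averaged 0.01 ± 0.21. Prom1, the gene of the membrane protein prominin, averaged -0.08 ± 0.35. Both had their highest value on replicate 1, at 0.28 and 0.38. The fit's term for dye orientation had an unadjusted p under 0.05 in 0 of 30 members and 6.49% of all genes.

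**Figure D4:**
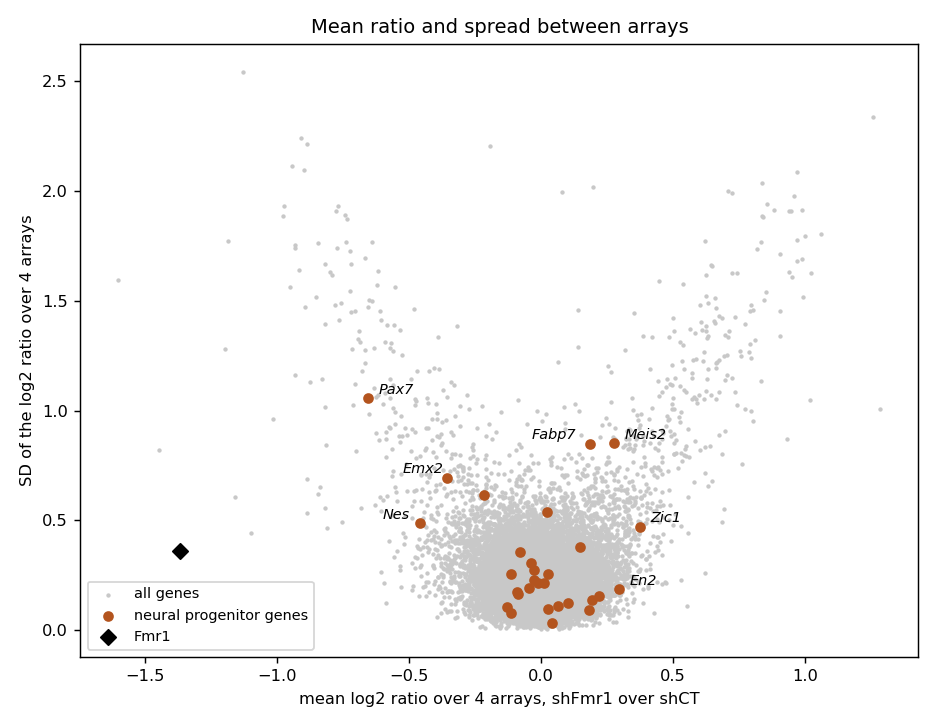
Mean log2 ratio over 4 arrays (x axis) against the SD over the arrays (y axis) for 19083 genes (grey), the 30 neural progenitor genes (brown) and Fmr1 (black diamond). Most members lie within the cloud of all genes, while Pax7, Emx2, Fabp7 and Meis2 have SDs of 0.69 or more and Fmr1 lies apart at -1.37.

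How far the features of a gene agreed on an array bears on the technical precision of these values. Over the 22 members with 2 or more features, the median SD between features was 0.23, and it ranged up to 1.74 for Emx2 on replicate 3. For 13 of these 22 members the features had means of both signs. The 8 members with 1 feature are Sox1, Sox4, Lhx2, Pou3f2, Gbx2, Pax7, Irx3 and Fabp7. Of the 500 member feature values, 17 lay beyond 1 in size, or 3.40%, against 1.34% of all named feature values.

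Tested feature by feature, 16 of the 125 member features (12.8%) had an unadjusted p under 0.05, against 3.68% of all 33649 features. En2 supplied 5 of the 16, Nes 3 and Pax3 2, and 6 genes supplied 1 each. Features of 1 gene share a transcript and the same RNA samples, and some may be repeats of 1 probe, so they are not separate observations. The limma adjusted p was 0.984 for the lowest of them, and 0 passed.

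The members did not sit at the same level on all arrays. Their median was 0.13 on replicate 1, 0.09 on replicate 2, -0.18 on replicate 3 and -0.05 on replicate 4. The median of all genes stayed between -0.01 and 0.01. Each array's deposited values average 0, so that median gives no measure of how far a list of 30 genes can move. On replicate 3, 21 of 30 members were below 0, against 47.7% of all genes, and on replicate 4 17 of 30, against 52.5%. On replicates 1 and 2, 7 and 8 of 30 were below 0, against 50.3% and 50.7%. The array with the lowest median, replicate 3, and that with the highest, replicate 1, both had shFmr1 in Cy5. The SD of the 4 medians was 0.14.

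**Figure D5:**
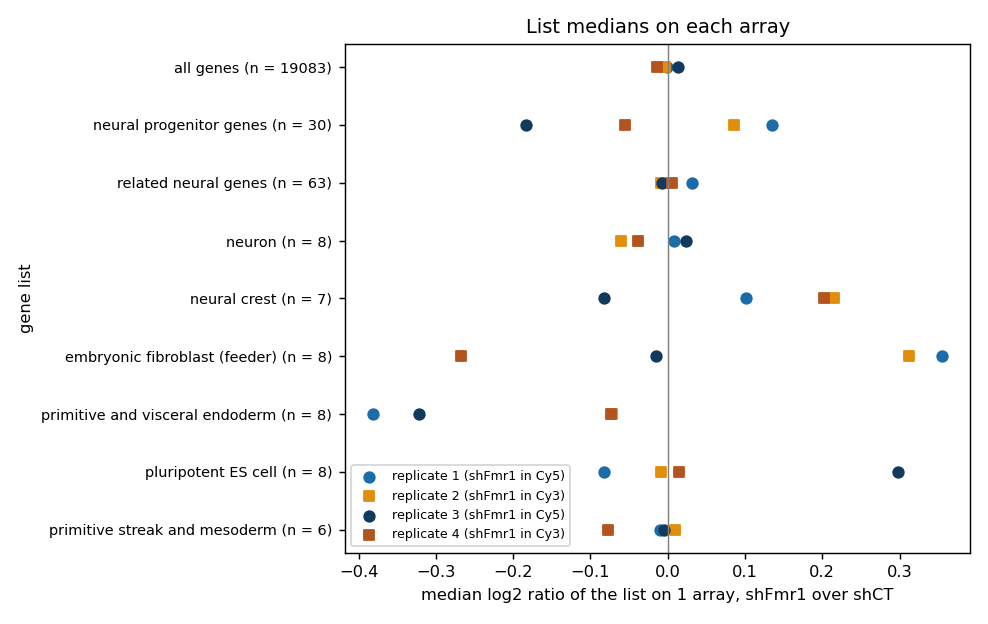
Median log2 ratio of each gene list on each array (x axis, circles for shFmr1 in Cy5, squares for Cy3) for all genes, the members, related neural genes and marker lists (y axis, n measured genes). The members spread from -0.18 to 0.13, the 63 related neural genes from -0.01 to 0.03, and fibroblast markers from -0.27 to 0.35.

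Other genes of the same programme were read from a separate list of 67 genes, of which 63 were measured. They comprise further early neural transcription factors, genes of neural induction and hedgehog signalling, and genes of radial glia. With limma 0 of 63 passed, and 1 lower and 1 higher gene had an unadjusted p under 0.05, against 2.05% and 1.71% of all genes. Their median was -0.01, with 33 means below 0 and 30 above. Their array medians stayed between -0.01 and 0.03.

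Of the related genes with the smallest p-values, Pou3f1, a POU factor of the epiblast and early neural plate, read -0.33, -0.64, -1.40 and 0.04. Lmx1a, a roof plate and midbrain factor, read -0.08, -0.20, -1.41 and -0.11. Fgfr3, a growth factor receptor of ventricular progenitors, read -0.55, -0.40, -0.03 and -0.04. Their means were -0.58 ± 0.61, -0.45 ± 0.64 and -0.26 ± 0.26 (SD, n = 4), and replicate 3 was the lowest array for the first 2 of them. Without replicate 3 the means of Pou3f1 and Lmx1a were -0.32 and -0.12, and without replicate 1 that of Fgfr3 was -0.13, each with the dye term.

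On the higher side, the matrix gene Tnc of radial glia read 0.26, 0.20, 0.05 and 0.52, and the hedgehog effector gene Gli2 read 0.20, 0.08, 0.34 and 0.09. Both were above 0 on every array. The mean of Tnc, 0.26 ± 0.20 (SD, n = 4), was 0.085 with the median over features and 0.91 with 1 feature per gene. Vax1, a factor of the optic stalk, averaged 0.72 ± 1.15, with 2.43 on replicate 2, and 0.10 without that array with the dye term. The limma adjusted p was 0.973 for all 6 of these genes.

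Markers of related cell types were read beside these values. The 8 neuronal markers had array medians from -0.06 to 0.02, and their defining gene Tubb3, a neuronal beta-tubulin, averaged 0.00 ± 0.19 (SD, n = 4) over 10 features. Of their means, 4 were below 0 and 4 above. With limma, 1 of the 8, Stmn2 at -0.27 ± 0.11, had an unadjusted p under 0.05 and was lower, against 2.05% of all genes. Its adjusted p was 0.973. The 7 neural crest markers had a median of 0.16, with 6 means above 0, array medians from -0.08 to 0.22 and Sox10 at 0.18 ± 0.13. Pluripotency markers had array medians from -0.08 to 0.30, highest on replicate 3, where the neural progenitor genes were lowest. On that array 3 of the 8 were below 0, among them Pou5f1 at -0.29, its lowest value. Pou5f1 averaged -0.10 ± 0.16, and of the 8 means 4 were below 0 and 4 above. Nanog had the highest mean, 0.33 ± 0.52, and read 0.48, 0.13, 0.96 and -0.25 on replicates 1 to 4. With limma it alone of the 8 had an unadjusted p under 0.05, against 1.71% of all genes for higher, and its adjusted p was 0.973. The term for dye orientation also had an unadjusted p under 0.05 for Nanog. Primitive endoderm markers were below 0 for 7 of 8, and 4 genes were below 0 on every array. Their array medians split by dye, at -0.38 and -0.32 with shFmr1 in Cy5 and -0.07 and -0.07 in Cy3. In the limma fit, the term for dye orientation had an unadjusted p under 0.05 for 3 of the 8, against 6.49% of all genes. For shFmr1 against shCT, an unadjusted p under 0.05 was found for 5 of the 8, all lower, against 2.05% of all genes. After adjustment with limma, 0 passed. The lowest mean was that of Cubn, a visceral endoderm receptor named after its value was seen, at -1.01 ± 0.96. It read -2.37 and -1.03 with shFmr1 in Cy5 and -0.39 and -0.26 in Cy3. Gata6 averaged -0.29 ± 0.38, with means of -0.60 with shFmr1 in Cy5 and 0.02 in Cy3, and it was -0.15 with the median over features and -0.08 with 1 feature per gene. The 6 measured mesoderm markers had array medians from -0.08 to 0.01. The part of any of these cell types in the ratios of the neural progenitor genes was not tested.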

How the data were processed

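Gene expression was measured on 4 Agilent 2-colour arrays, each with 0.2 µg of RNA per channel at an RNA integrity number of 9, per the labels. The deposited table holds 1 log2 ratio per feature and array, as read from the values. For its log base, direction and normalization, the sources used here give nothing. Each array's deposited values average 0. The 45214 features were named from a 2016 platform annotation, and 33649 with 1 gene symbol were kept. Features were averaged per gene and array.

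Genes were fitted across all 19083 genes with limma 3.58.1 in R 4.3.3 (lmFit and eBayes) with a term for dye orientation, with Benjamini-Hochberg adjustment of the p-values. The procedure was tested on simulated data. An exact sign-flip test over 4 arrays cannot give a two-sided p below 0.125. No intensities were used, so dim features were kept, and the number of arrays limits the precision.

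The members and lists were chosen with earlier results of these data known. The text names each member, Fmr1, the 3 related genes with the smallest p in each direction and 1 defining gene per marker list. The mesoderm gene Brachyury and 4 related genes had no feature with their symbol and are not analysed here. Chrd, Otx2, Cubn, Thy1, Postn, Nanog and Stmn2 are named after their values were seen. Alternatives covered the dye term, feature summaries, scaling, the variance model, the threshold, the log base and leaving out arrays.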

Additional observations from a re-analysis of the deposited data

Results flagged for a closer look

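The 59 results checked here are list medians and the genes named by rule. On 4 of them, 1 array lay far from the other 3 by Dixon's criterion. The nominal rate of that criterion for normally distributed values is about 1 in 20, or 2.95 of 59. The share over all genes is not given here. Some list medians are built from genes that are also counted, so the 59 are not independent. Pax7 read -2.23 on replicate 1 and between -0.23 and -0.05 on the others. Irx3 read -1.14 on replicate 3 and between 0.07 and 0.12 on the others. Lmx1a, a related roof plate factor, read -1.41 on replicate 3 and between -0.20 and -0.08 on the others. These 3 genes have 1 feature each. The median of the 8 forebrain and eye factors was -0.31 on replicate 3 and between 0.09 and 0.16 on the others. Replicate 3 was the lowest array for Pax6, Six3, Lhx2, Emx2, Dach1 and Pou3f3 of that group, and the highest for Rax and Pou3f2.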

How the results depend on the processing

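The count of passing members was 0 under every alternative run, while over all 19083 genes it was 25, 87, 10 and 0 without replicates 1, 2, 3 and 4 with the dye term and 0 otherwise, and the member median of 0.0006 ran from -0.11 to 0.06 as single arrays were left out. The number of members with an unadjusted p under 0.05 was 1 as reported, 2 without the dye term, under quantile normalization, without variance moderation and without features beyond 2 in size, and 0 to 5 with 1 array left out. With single features tested it was 16 of 125. Each array holds both RNAs, so the fit on its ratios already pairs shFmr1 with shCT. The labels form a single group of ratios, and no further pairing was modelled. Leaving out features beyond 2 in size was chosen after seeing the data, and it left no value for Pax7. Of the 240 member means with 1 array left out, 39 changed sign, over 17 members. Of the related genes, 0 to 1 passed when 1 array was left out. The call was Chrd at 1.69 without replicate 2, 1 of the 87 genes that passed there, where limma's adjusted p was 0.0197 and replicate 4 alone held its dye orientation. Fmr1 had an adjusted p of 0.0327 in the same setting.

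With 1 array left out, the log2 means with a change of sign ranged as follows. The mean ran for Sox1 from -0.12 to 0.046, Sox4 from -0.17 to 0.11, Sox11 from -0.12 to 0.18, Sox9 from -0.00066 to 0.13 and Six3 from -0.15 to 0.10. It ran for Lhx2 from -0.0044 to 0.30, Dach1 from -0.25 to 0.029, Gbx2 from -0.26 to 0.31, Pax3 from -0.011 to 0.068 and Olig2 from -0.18 to 0.0041. The range was, for Irx3 from -0.53 to 0.10, Meis1 from -0.19 to 0.13, Meis2 from -0.16 to 0.71, Cdh2 from -0.10 to 0.13 and Prom1 from -0.23 to 0.055. Last, the mean ran for Fabp7 from -0.27 to 0.64, Msi2 from -0.077 to 0.062, Col1a1 from -0.17 to 0.98 and Tubb3 from -0.094 to 0.097. The median over features turned Msi2 to 0.019 and Tubb3 to -0.0084. With 1 feature per gene En1 turned to -0.0020, Pax3 to -0.12, Cdh2 to -0.00097 and Msi2 to 0.13. Tubb3 was -0.0016 with a common median absolute deviation and -0.0021 with quantile normalization, and Col1a1 was -0.16 without features beyond 2. Some members also differed in sign between the arrays with shFmr1 in Cy5 alone and those in Cy3 alone. Emx2 was -0.79 in Cy5 and 0.08 in Cy3, Irx3 -0.51 and 0.08, Prom1 0.14 and -0.30, and Sox4 0.13 and -0.21. The others were Sox1, Sox11, Six3, Lhx2, Pax3, Meis1, Cdh2 and Msi2. The cause was not tested. Single-feature tests give no mean per gene. With 4 arrays and no intensities, dim features could not be set apart.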

Other observations

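Chrd, which encodes the BMP antagonist chordin of neural induction, had the highest mean of the related genes, at 0.82 ± 1.74 (SD, n = 4) on the log2 scale. It read -0.23, -0.06, 0.15 and 3.41 on replicates 1 to 4 from 1 feature, so replicate 4 alone was high. Otx2, a homeobox factor of the epiblast and forebrain with 10 features, chosen like Chrd after its values were seen, read -0.88, 0.07, 0.07 and 0.50. Its lowest array was thus replicate 1, where the median of the neural progenitor genes was highest.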
